A study of Mus musculus with 9 samples.

Results

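Keratins are the intermediate filament proteins of epithelial cells, and 10 of their genes were followed here in the mouse submandibular gland after part of it was cut away. The genes were taken from a list of symbols, each represented by its transcript cluster, the unit into which the array's probes are summarised. The simple keratins were Krt7, Krt8, Krt18, Krt19 and Krt23, and the basal or stress keratins were Krt5, Krt14, Krt15, Krt17 and Krt6a. Transcript clusters were found for 9 of the 10 among 22206 tested, and Krt6a was not analysed here. The arrays (Clariom S) came from 3 groups of 3 biological replicates: glands healing for 14 days after partial resection, glands healing for 3 days after partial resection, and glands taken 3 days after mock surgery. All mice were C57BL6/J females aged 12 weeks. Mock glands represent day 3 only, so a difference at day 14 carries the time since surgery as well as the resection. The labels do not say how much of the gland was removed or whether an array held tissue of a single mouse, so p-values measure the spread between these samples.

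Keratin filaments are built from pairs of a type I and a type II protein, so epithelial cells express the genes in sets. The simple keratins Krt8 (type II) and Krt18 (type I) form the filaments of secretory and luminal duct cells, with Krt7 (type II) and Krt19 (type I) in ducts. Krt5 (type II) and Krt14 (type I) form those of basal duct cells and myoepithelial cells. Krt17 is a type I keratin induced in wounded epidermis, Krt15 a type I keratin of basal cells, and Krt23 a type I keratin that in mouse liver is known from duct-like cells appearing after injury.

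Values are log2 levels as the authors deposited them. Levels of different genes come from different probes and are not set against each other. They were read only against 5222 negative control rows of the same arrays, whose 95th percentile lay between 8.21 and 8.52. Krt7, Krt8, Krt18 and Krt23 exceeded that percentile on all 9 arrays. Krt14 exceeded it on 1 array, and Krt5, Krt15, Krt17 and Krt19 on none. For Krt15, Krt17 and Krt19, between 29.4% and 64.6% of the negative control rows lay below the gene's own value, depending on the gene and array. For Krt5 it was 75.5% to 92.2% and for Krt14 85.5% to 95.4%. The percentile is a high mark, since the median of all transcript clusters was 5.09 to 5.24 on these arrays. The table has no detection calls. Within groups, correlations between arrays were 0.985 to 0.990. Of 15 epithelial marker genes, the adhesion gene Epcam lay between 14.72 and 15.33 and the E-cadherin gene Cdh1 between 14.62 and 15.88 over the 9 arrays, while Ovol1 averaged 3.39 on resected day 3 arrays and 3.82 on mock arrays, below the median of the negative controls. The mean level of the 15 was 10.96 to 11.30 on resected day 14 arrays, 10.51 to 10.94 on resected day 3 arrays and 11.07 to 11.38 on mock arrays.

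The promoters of 3 of these genes are shown for orientation: Krt23, whose call held under every alternative tried, Krt5, a basal keratin, and Krt7, a simple keratin that did not pass the test in any comparison. RefSeq windows (GRCm38.p6) running from 250 bases before to 50 bases after the annotated start were available for 6 of the keratins. Capitals mark every match, on either strand, to the TATA box letters TATAAA, to a variant of them spelled ATAAAA, to the GC box letters GGGCGG, or to the AP-1 site letters TGANTCA.
Krt23, chr11:99493071-99493370, minus strand: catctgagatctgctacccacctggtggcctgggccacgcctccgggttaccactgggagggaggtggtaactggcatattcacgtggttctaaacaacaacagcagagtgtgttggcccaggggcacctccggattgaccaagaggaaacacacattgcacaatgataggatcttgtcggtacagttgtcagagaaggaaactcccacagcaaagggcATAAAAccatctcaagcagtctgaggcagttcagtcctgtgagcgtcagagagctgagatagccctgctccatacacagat
Krt5, chr15:101712856-101713155, minus strand: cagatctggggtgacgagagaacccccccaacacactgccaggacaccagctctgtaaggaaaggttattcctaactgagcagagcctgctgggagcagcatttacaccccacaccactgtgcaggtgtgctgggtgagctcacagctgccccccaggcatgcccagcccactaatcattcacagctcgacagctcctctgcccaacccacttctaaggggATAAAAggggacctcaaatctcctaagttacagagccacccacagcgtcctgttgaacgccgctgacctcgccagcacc
Krt7, chr15:101412153-101412452, plus strand: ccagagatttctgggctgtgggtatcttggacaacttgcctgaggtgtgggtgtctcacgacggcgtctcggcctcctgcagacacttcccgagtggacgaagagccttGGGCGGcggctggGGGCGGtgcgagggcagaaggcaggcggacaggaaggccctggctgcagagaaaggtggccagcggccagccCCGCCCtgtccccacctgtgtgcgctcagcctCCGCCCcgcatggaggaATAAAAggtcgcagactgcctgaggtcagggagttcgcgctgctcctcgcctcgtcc
The variant, picked after the sequences had been read, began 31 bases before the start in Krt23, 29 bases before it in Krt5 and 7 bases before it in Krt7. It overlaps the TATA box letters where a further A follows them, as on the minus strand of Krt8, whose window holds the TATA box letters on both strands. Of 32851 promoter windows of this length, 18.5% hold the variant, 13.6% the TATA box, 35.7% the GC box and 7.8% the AP-1 site. The GC box occurred 4 times in Krt7 and was not found in the windows of Krt5, Krt8, Krt14, Krt18 or Krt23. The windows of Krt14 and Krt18 held no match, and the AP-1 letters were not found in any of the 6.

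**Figure D1:**
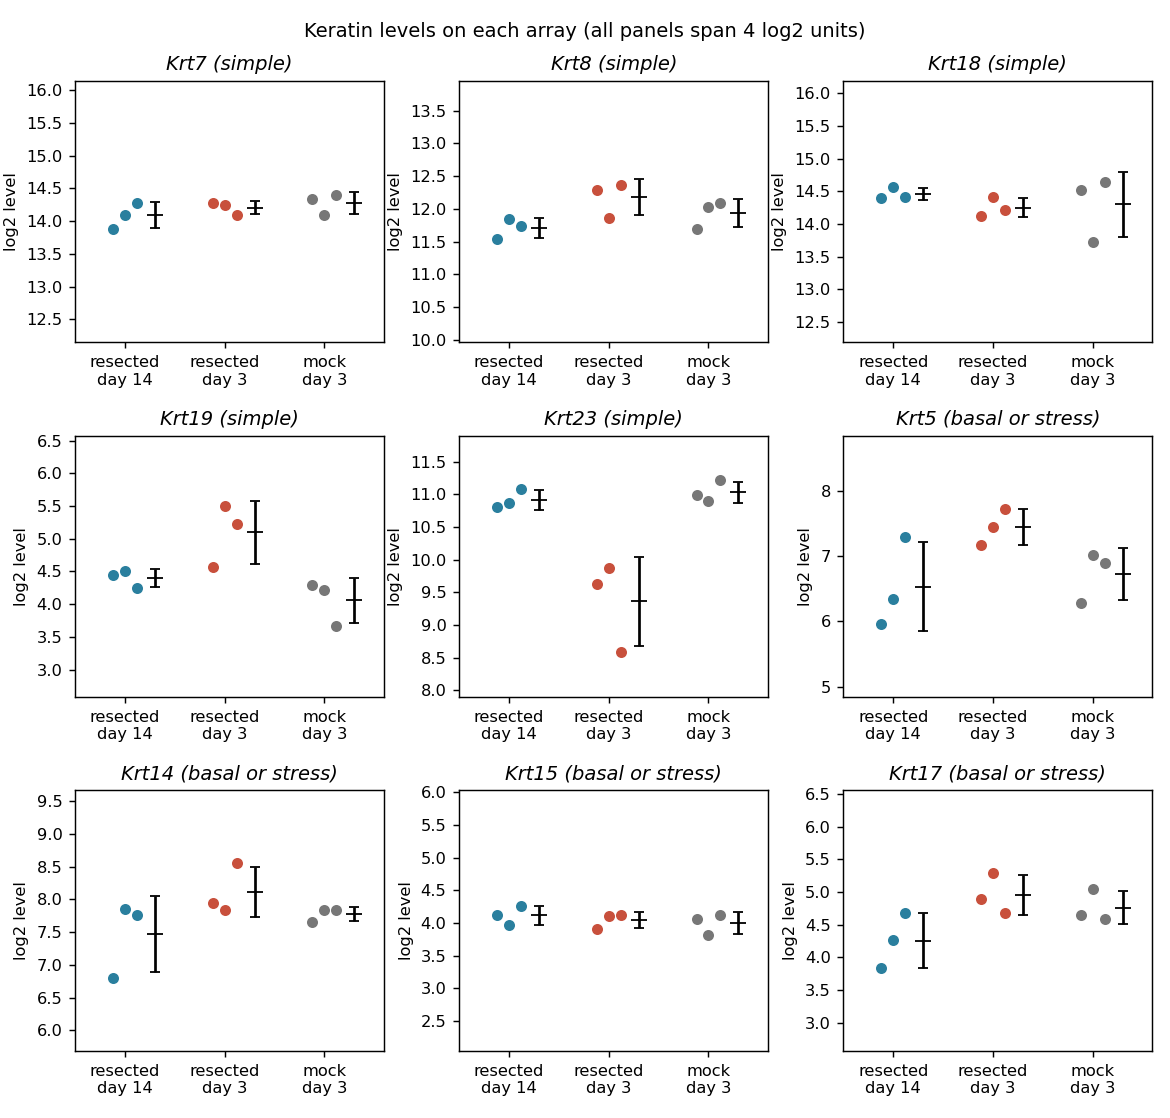
Deposited log2 level (y axis) of each of the 9 measured keratins on every array, by group (x axis), with the mean and SD beside the points; each panel spans the same number of log2 units. Krt23 lay between 8.59 and 9.87 on the resected day 3 arrays, below all resected day 14 and mock arrays, while Krt7 and Krt15 varied little over all 9.

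The comparison of resected with mock glands on day 3 asks what removal of tissue changes beyond the operation itself. Krt23 fell and Krt19 rose, while the main simple keratins Krt7, Krt8 and Krt18 and the 4 measured basal keratins did not pass the threshold. Passing means an adjusted p under 0.05 in limma, a linear model with pooled variance, with Benjamini-Hochberg adjustment over all transcript clusters. So 2 of 9 keratins passed, against 6.27% of all transcript clusters (4.92% higher and 1.36% lower). The groups did not overlap for 3 of 9 keratins, against 23.0% of all transcript clusters (11.2% upwards and 11.8% downwards). An unadjusted p under 0.05 was found for 3 of 9 keratins and for 18.6% of all transcript clusters. The median difference over the 9 keratins was 0.19, against -0.06 over all transcript clusters.

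Krt23 was at 9.62, 9.87 and 8.59 on the resected day 3 arrays, against 10.99, 10.89 and 11.21 on the mock arrays. Every resected array lay below every mock array, with resected replicate 3 the lowest. The difference was -1.67 ± 0.30 (SE; limma adjusted p = 0.00396). Without any 1 array it ranged from -1.93 to -1.28, with limma adjusted p between 0.0037 and 0.0192. In a bulk sample, fewer cells of a type and less RNA per cell cannot be told apart. Markers of other cells moved on the same arrays: 9 of 9 macrophage genes and 6 of 8 fibroblast genes rose, where 4.92% of all transcript clusters did. The mean level of the macrophage list was 11.42 to 11.94 on resected day 3 arrays and 8.17 to 8.87 on mock arrays, and that of the fibroblast list 12.34 to 13.76 on resected day 3 arrays and 10.02 to 10.52 on mock arrays. The mean of the 15 epithelial genes was lower on every resected day 3 array than on every mock array. With each array centred on that mean, the difference of Krt23 was -1.25 (limma adjusted p = 0.0059), a scaling that moves the median of all transcript clusters from -0.06 to 0.35. The part of these cells in the fall of Krt23 was not tested.

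Krt19 was at 4.57, 5.50 and 5.23 on resected day 3 arrays, against 4.30, 4.22 and 3.66 on mock arrays. The groups did not overlap, although resected replicate 1 lay close to the mock range. The difference was 1.04 ± 0.27 (SE; limma adjusted p = 0.0366). This call was lost without mock replicate 2 or 3, without resected replicate 2 or 3, and in a fit of these groups alone, with limma adjusted p of 0.0612 to 0.153 and differences of 0.84 to 1.12. All 9 values of Krt19 lay below the 95th percentile of the negative controls. The median of the negative control rows was itself 4.70 ± 0.06 on resected day 3 arrays and 4.46 ± 0.06 on mock arrays (SD, n = 3; exact permutation p = 0.1, which cannot be lower with 3 arrays a group), a difference of 0.25. Its part in the rise of Krt19 was not tested. Mesothelium also expresses Krt19, and its part was not tested. Its 5 measured markers had a mean level of 3.27 to 3.47 on resected day 3 arrays and 3.35 to 3.50 on mock arrays, below the median of the negative controls. Of the 5, 0 passed in limma or had an unadjusted p under 0.05, against 6.27% and 18.6% of all transcript clusters.

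Krt8 and Krt18, the partner pair of secretory and luminal cells, did not pass on day 3. Krt8 was at 12.29, 11.86 and 12.37 on resected day 3 arrays, against 11.69, 12.03 and 12.09 on mock arrays, a difference of 0.24 ± 0.22 (limma adjusted p = 0.639). Krt18 was at 14.13, 14.41 and 14.22 on resected day 3 arrays, against 14.53, 13.73 and 14.65 on mock arrays. The groups overlapped for both genes, and the low value of mock replicate 2 gave Krt18 its wide spread among mock glands. Its difference was -0.05 ± 0.25, with a 95% interval of -0.59 to 0.49. Krt7, a keratin of ducts, was at 14.28, 14.24 and 14.10 on resected day 3 arrays, against 14.34, 14.09 and 14.40 on mock arrays. These ranges overlapped too, and the 95% interval of the difference ran from -0.51 to 0.37.

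Among the basal keratins, Krt5 came closest to the threshold. It was at 7.17, 7.44 and 7.73 on resected day 3 arrays, against 6.28, 7.02 and 6.90 on mock arrays, and the groups did not overlap. All these values lay below the 95th percentile of the negative controls. The difference of 0.71 ± 0.33 had a limma adjusted p of 0.267 and an unadjusted p of 0.0493, and it was 0.48 without mock replicate 1. Its partner Krt14 was at 7.95, 7.85 and 8.56 on resected day 3 arrays, against 7.66, 7.85 and 7.84 on mock arrays, a difference of 0.33 ± 0.29, or 0.11 without resected replicate 3. The groups overlapped. Krt17 differed by 0.19 ± 0.26 and Krt15 by 0.05 ± 0.20, with overlapping groups. All 4 basal differences were above 0, against 43.1% of all transcript clusters, and none passed. Their median was 0.26. The median of the negative control rows was itself 0.25 higher on resected day 3 arrays than on mock arrays. Its part in the basal differences was not tested. With each array centred on its epithelial genes, Krt5 passed (1.13, limma adjusted p = 0.0370), under the scaling that raises the median of all transcript clusters to 0.35.

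**Figure D2:**
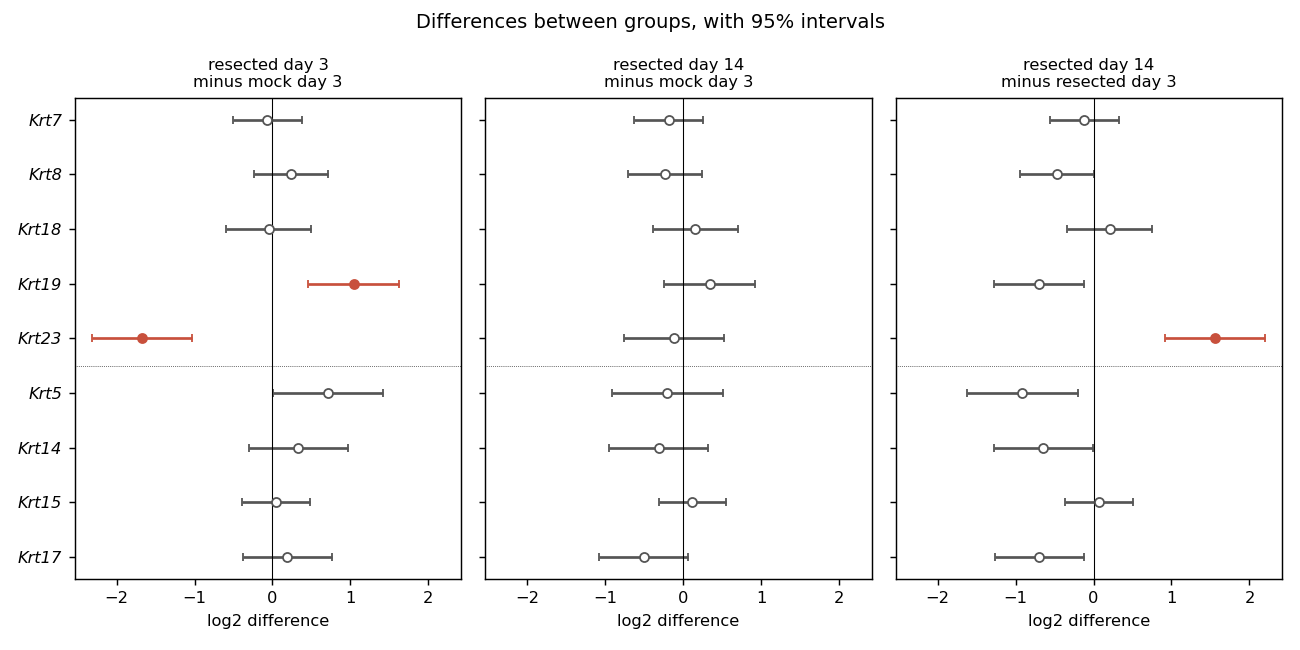
Difference in log2 level (x axis) of each keratin (y axis) in the 3 comparisons, with 95% intervals from limma; filled red points passed an adjusted p of 0.05. Krt23 stands at -1.67 on day 3 against mock and at 1.56 on day 14 against day 3, and intervals of all 9 keratins include 0 on day 14 against mock.

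**Figure D3:**
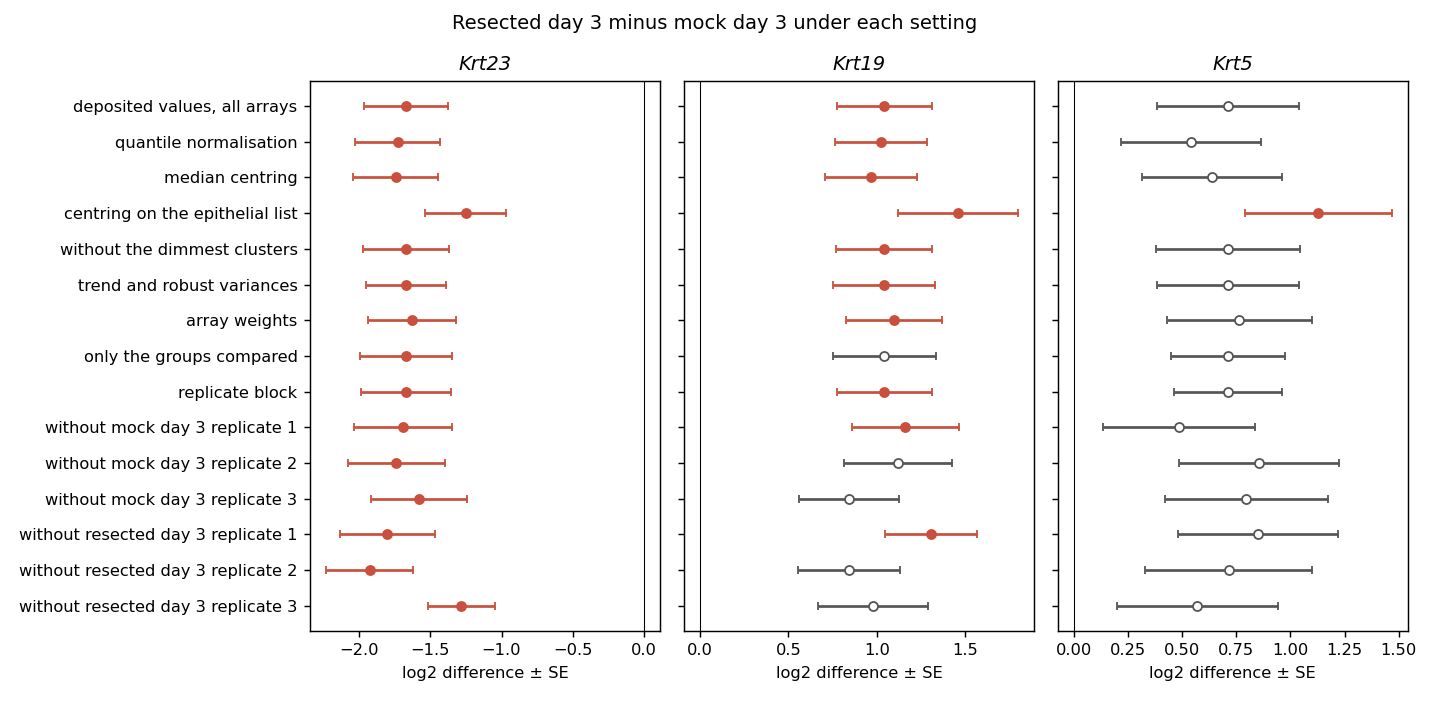
Difference between resected day 3 and mock arrays (x axis, log2, with SE) of Krt23, Krt19 and Krt5 in each fit (y axis); filled red points passed an adjusted p of 0.05. Krt23 passed in all 15 fits shown, Krt19 lost the call in 5 and Krt5 gained it in 1.

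Day 14 resected against mock asks whether keratin levels still differ later. None of the 9 keratins passed in limma, 0 had an unadjusted p under 0.05 (8.18% of all transcript clusters had one), and for 0 of 9 did the groups separate. Of all transcript clusters 0.153% passed (0.0991% higher and 0.0540% lower) and 13.0% separated (6.03% upwards and 6.99% downwards). Differences were above 0 for 3 of 9 keratins and for 49.8% of all transcript clusters. Krt23 was at 10.80, 10.86 and 11.09 on resected day 14 arrays, against 10.99, 10.89 and 11.21 on mock arrays. The ranges overlapped, and the difference of -0.11 ± 0.30 had a 95% interval of -0.76 to 0.53. Krt19 was at 4.45, 4.50 and 4.25 on resected day 14 arrays, 0.34 ± 0.27 above mock (limma adjusted p = 0.784). Among the 9 keratins the largest difference in size was that of Krt17, at 3.83, 4.27 and 4.68 on resected day 14 arrays and 4.65, 5.05 and 4.60 on mock arrays (-0.51 ± 0.26, limma adjusted p = 0.657). Krt18 differed by 0.16 ± 0.25, Krt7 by -0.19 ± 0.20, Krt8 by -0.23 ± 0.22 and Krt15 by 0.12 ± 0.20.

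Krt5 was at 5.96, 6.34 and 7.28 on resected day 14 arrays, and Krt14 at 6.80, 7.85 and 7.76. Replicate 1 was low for both, and also for Krt17. The differences from mock of -0.20 ± 0.33 for Krt5 and -0.31 ± 0.29 for Krt14 turned to 0.08 and 0.02 without that array. Its list of 10 myoepithelial and smooth muscle genes was also low, with a mean level of 7.81, the lowest of the 9 arrays. The part of myoepithelial cells in these values was not tested.

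Day 14 against day 3 resected glands tests a change in the difference from the day 3 mock arrays, which serve both days and so cancel. Without mock glands of day 14, it carries the time since surgery as well as the resection. Krt23 was higher on day 14 by 1.56 ± 0.30 (limma adjusted p = 0.0059), with no overlap between groups. It was the 1 keratin of 9 that passed, against 6.28% of all transcript clusters (1.40% higher and 4.88% lower). Differences were above 0 for 3 of 9 keratins and for 56.5% of all transcript clusters. Without any 1 array the difference ranged from 1.17 to 1.81, with limma adjusted p of 0.0046 to 0.0325. The groups separated for 4 of 9 keratins, against 25.4% of all transcript clusters (12.9% upwards and 12.5% downwards), and 5 of 9 had an unadjusted p under 0.05, against 18.9% of all transcript clusters. Krt8, Krt17 and Krt19 were those that separated downwards. On the same arrays 9 of 9 macrophage and 5 of 8 fibroblast genes fell, and their part in the rise of Krt23 was not tested.

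Krt8 was at 11.54, 11.84 and 11.74 on day 14 arrays, against 12.29, 11.86 and 12.37 on day 3 arrays (-0.47 ± 0.22, limma adjusted p = 0.275). Krt19 differed by -0.70 ± 0.27 (limma adjusted p = 0.171) and Krt17 by -0.70 ± 0.26 (0.161). Krt5 differed by -0.91 ± 0.33 (limma adjusted p = 0.140) and Krt14 by -0.65 ± 0.29 (0.259). Krt5 passed without day 14 replicate 3 (-1.29, limma adjusted p = 0.0278), and its difference was -0.63 without day 14 replicate 1. Krt14 differed by -0.31 and Krt17 by -0.48 without that same array. Krt7, Krt15 and Krt18 differed by -0.12 to 0.21. The 4 basal keratins had a median of -0.67, the 5 simple keratins of -0.12 and all transcript clusters of 0.06.

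Because the filaments need both partners, the balance within a pair was followed on each array as the type II level minus the type I level, which shows unequal change but not a ratio of the molecules. Krt8 minus Krt18 was -2.86, -2.73 and -2.67 on resected day 14 arrays, -1.84, -2.55 and -1.84 on resected day 3 arrays, and -2.83, -1.70 and -2.56 on mock arrays. Day 14 lay below day 3 on every array, a difference of -0.68 (exact permutation p = 0.1, two-sided, 0.6 adjusted over 6 tests). Krt5 minus Krt14 averaged -0.94 ± 0.52 on resected day 14, -0.67 ± 0.23 on resected day 3 and -1.05 ± 0.29 on mock arrays (SD, n = 3 each), and differed between groups with exact permutation p of 0.2 to 0.9. With 3 arrays a group, 0.1 is the smallest p these tests allow.

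The rest of the keratin family was mostly at low values and did not rise. Of 21 other epithelial keratins measured, 0 rose and 1 fell on day 3 in limma, against 4.92% and 1.36% of all transcript clusters. Wholly below mock lay 6 of the 21, where 11.8% of all transcript clusters did. Of these, Krt2, Krt28, Krt78 and Krt84 averaged 2.28 to 2.63 on resected day 3 arrays. The median of the negative control rows was 4.65 to 4.77 there. The median difference of the 21 was -0.26. The one that fell in limma was Krt10, the type I keratin of differentiating epidermis, at 4.43, 4.17 and 3.76 on resected day 3 arrays, against 5.48, 5.28 and 4.75 on mock arrays (-1.05 ± 0.25, limma adjusted p = 0.0241). Its resected day 3 values lay below the median of the negative control rows of those arrays. All these values lay below the 95th percentile, so the fall is near the floor. Krt13, a keratin of stratified internal epithelia, differed by -0.27 ± 0.30. Krt16, which like Krt17 is induced in wounded epidermis, differed by -0.17 ± 0.25. Krt14, Krt16 and Krt17 are close in sequence, and whether the probes tell them apart was not tested. On day 14, 0 of the 21 passed in limma against mock (1 with an unadjusted p under 0.05) and 0 against day 3 (4 with one). Of all transcript clusters 0.153% and 6.28% passed in these comparisons, and 8.18% and 18.9% had an unadjusted p under 0.05.

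Desmosomes and hemidesmosomes anchor keratin filaments at the cell surface. Of 14 desmosome genes 0 passed in limma on day 3 against mock, where 6.27% of all transcript clusters did. An unadjusted p under 0.05 was found for 2 of the 14, against 18.6% of all transcript clusters. Differences were below 0 for 13 of the 14, against 56.9% of all transcript clusters, with a median of -0.23 against -0.06, and with the plaque protein Pkp1 at -0.74 ± 0.20 (limma adjusted p = 0.0508). Pkp1, 1 of the 14, rose on day 14 relative to day 3, where 1.40% of all transcript clusters did. It was at 10.73, 10.87 and 11.06 on day 14 arrays against 9.66, 9.70 and 9.54 on day 3 arrays (1.26 ± 0.20, limma adjusted p = 0.00189). Of 7 measured hemidesmosome genes, which hold basal cells to their matrix, 0 passed in limma in each of the 3 comparisons. Of all transcript clusters 6.27% passed on day 3 against mock, 0.153% on day 14 against mock and 6.28% between the days. None of the 7 had an unadjusted p under 0.05 on day 3. The integrin subunit Itga6 differed by -0.31 ± 0.22 and the tetraspanin Cd151 by 0.16 ± 0.24 on day 3. Of 12 transcription factors of basal and ductal epithelium, 0 passed on day 3 in limma, to be read against the same 6.27%. An unadjusted p under 0.05 was found for 4 of the 12, a share to be read against the same 18.6% (median -0.51). The basal cell regulator Trp63 was at 7.46, 7.51 and 7.15 on resected day 3 arrays, against 7.43, 7.15 and 7.26 on mock arrays (0.09 ± 0.22). Elf5, a transcription factor of glandular epithelia and 1 of the 12, rose on day 14 relative to day 3 (0.75 ± 0.21, limma adjusted p = 0.0498). Of all transcript clusters 1.40% rose there.

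Of all transcript clusters, 1.36% fell and 4.92% rose in limma on day 3, the shares beside which the next counts are read. Among epithelial adhesion and identity genes, 3 of 15 fell on day 3 and 0 rose, with a median of -0.42. Those that fell were the trafficking GTPase Rab25 (-1.07 ± 0.21), the protease inhibitor Spint1 (-1.06 ± 0.28) and the claudin Cldn3 (-0.95 ± 0.26), with limma adjusted p of 0.00667, 0.0410 and 0.0458. Epcam differed by 0.07 ± 0.21 and Cdh1 by -0.01 ± 0.30. Among 15 measured ductal genes 0 rose and 2 fell on day 3, the sodium channel subunit Scnn1g (-1.46 ± 0.27) and the growth factor Egf (-2.94 ± 0.59). The median of the 15 was -0.10. Of 12 acinar genes 0 rose and 2 fell, the transcription factor Bhlha15 (-1.19 ± 0.31) and the cotransporter Slc12a2 (-1.15 ± 0.24). Dcpp3, named after its value was seen, was higher by 7.98 ± 2.25 (limma adjusted p = 0.0563), with overlapping groups. The mean level of the 12 was 15.02 to 16.48 on resected day 3 arrays and 15.30 to 15.51 on mock arrays. That mean includes Dcpp3, at 14.73 ± 6.18 on resected day 3 arrays and 6.75 ± 1.25 on mock arrays (SD, n = 3 each). The groups separated downwards for 3 of the 12 and upwards for 0, against 11.8% and 11.2% of all transcript clusters. Smgc, also named after its value was seen, separated downwards (-1.93 ± 0.65, limma adjusted p = 0.113). Pip, Car6 and Prol1, 3 of the 12 named after their values were seen, stood at the highest value of the table on all 6 day 3 arrays and could not show a change, and the same held for Klk1 among the ductal genes. On day 14 against day 3, 5 of 15 ductal genes rose and 1 fell, against 1.40% and 4.88% of all transcript clusters. Scnn1g (1.42 ± 0.27), Egf (2.83 ± 0.59) and the glutathione transferase Gstt1 (1.09 ± 0.25) rose, while the protease inhibitor family member Wfdc2 averaged 9.20 ± 0.25 on day 14 arrays and 10.49 ± 0.25 on day 3 arrays (SD, n = 3 each) and fell by 1.29 ± 0.29 (SE; limma adjusted p = 0.0183). Of the acinar genes 2 rose, Bhlha15 and Slc12a2.

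Vim, the intermediate filament gene of fibroblasts and leukocytes, rose on day 3. It was at 13.41, 13.63 and 15.09 on resected day 3 arrays, against 11.58, 11.08 and 10.40 on mock arrays, a difference of 3.02 ± 0.40 with no overlap. The other 9 intermediate filament genes that are not keratins did not pass. Acta2, the actin of myoepithelial and smooth muscle cells, differed by 0.31 ± 0.29, while Myh11, the smooth muscle myosin, fell by 1.07 ± 0.26. Myh11 was the 1 of 10 myoepithelial and smooth muscle genes that passed, and the list median was -0.02. Of 17 measured genes of epithelial wound and stress responses, 3 rose on day 3: the chaperone Clu (6.54 ± 0.31), the annexin Anxa2 (2.49 ± 0.38) and the calcium-binding S100a6 (1.62 ± 0.35). Sprr1b, a precursor of the cornified envelope, fell by 1.31 ± 0.31. Of 11 cell division genes 11 rose on day 3. Among all transcript clusters 4.92% rose and 1.36% fell in that comparison. Sprr1b and Krt10 were also the 2 of 10 skin genes that fell. For 0 of 7 skeletal muscle and 0 of 6 fat genes was the threshold passed in limma or an unadjusted p under 0.05 found. Such an unadjusted p was found for 18.6% of all transcript clusters.

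**Figure D4:**
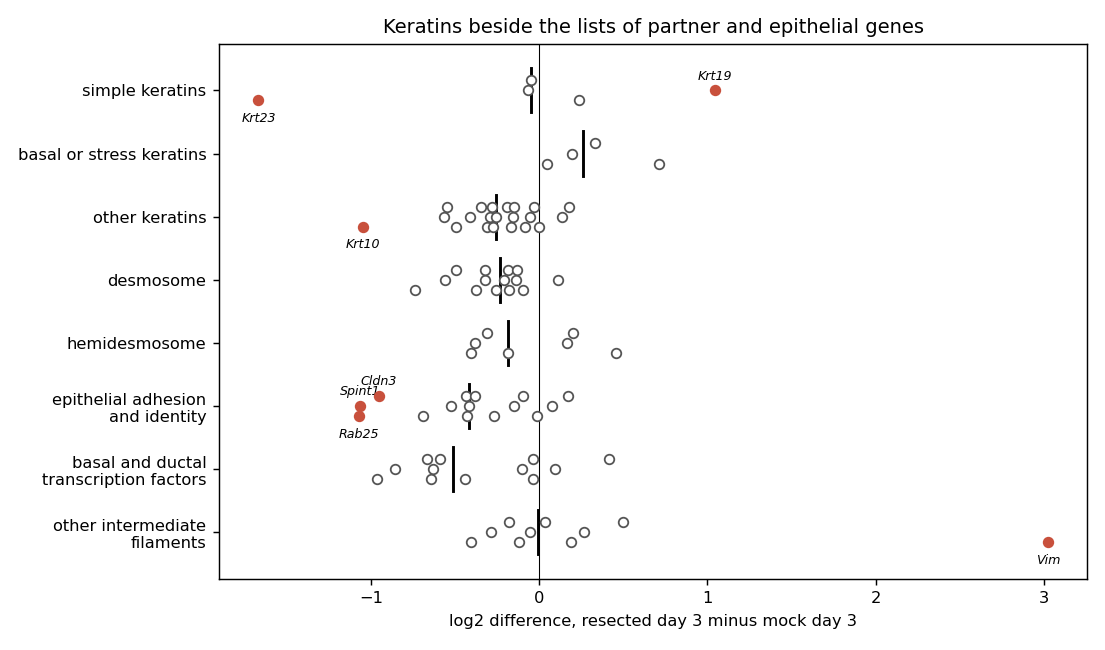
Difference in log2 level between resected day 3 and mock arrays (x axis) of each measured gene in 8 lists (y axis); filled red points passed an adjusted p of 0.05 and are named, and vertical bars are list medians. The basal keratins have a median of 0.26, against -0.42 for the epithelial adhesion genes, and Vim stands apart at 3.02. The median of the negative control rows differed by 0.25 between the same groups.

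The genes whose profile over the 9 arrays was most like that of Krt23, each profile centred on its own mean, were Bckdha, Abhd14b and Dnah11, with root mean square differences of 0.22, 0.24 and 0.24 log2 units among 9767 named transcript clusters of above median level. Bckdha encodes a subunit of the dehydrogenase of branched-chain amino acids. For Krt19 they were Impact, Qk and Tnfrsf11a, at 0.18 to 0.19. Such closeness is a description of 9 arrays in 3 groups.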

How the data were processed

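Per the labels and the submitters' processing notes, the authors deposited log2 values from RMA, a method that corrects background, normalises arrays to each other and summarises probes, run in Transcriptome Analysis Console 4.0. No source used here names the genome build behind the array's own annotation. The deposited table holds 28846 rows, of which 6640 controls were left out of tests. The highest value, 19.93, acts as a ceiling that no keratin reached. Symbols come from the platform's probe table, updated through Entrez identifiers to RefSeq (GRCm38.p6), which named 19572 transcript clusters; genes of the lists that share a cluster count once, a symbol takes its cluster of highest mean, and each measured keratin had 1.

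Tests used limma 3.58.1 in R 4.3.3 on all 9 arrays, with 1 mean per group (6 residual and 6.63 prior degrees of freedom). The fit was checked on simulated data. Members and lists (17 lists, 199 genes, 183 transcript clusters) were chosen with earlier results of these data known. Where genes of a list were named, they were up to 4 past the threshold in a comparison, by adjusted p, and a few fixed genes such as Epcam. For the hemidesmosome list, where none passed in any comparison, the 2 of highest level were named. No genes were named from the macrophage, fibroblast, cell division, mesothelial, skeletal muscle and fat lists. The 3 most similar profiles were named for each keratin that passed. Others, such as Dcpp3 and Pip, were named after their values were seen. Alternatives were 3 rescalings, a filter, 2 variance settings, fewer groups, a replicate block and leaving out each array. Same-numbered arrays of different groups had deviations correlated at -0.09 to 0.05, so replicate numbers were not treated as pairs. The number of arrays limits the precision.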

Additional observations from a re-analysis of the deposited data

Results flagged for a closer look

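The difference of Krt23 from mock was not the same at both times. Day 14 minus day 3 gave 1.56 ± 0.30 log2 units (limma adjusted p = 0.0059), from -0.11 on day 14 and -1.67 on day 3. All 3 resected day 14 arrays lay above all 3 resected day 3 arrays. The comparison with mock at day 14 uses mock glands taken on day 3.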

How the results depend on the processing

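Of 378 refits of the keratin differences, 355 kept the direction and the side of the threshold, 5 lost a call (all Krt19 on day 3), 4 gained one (Krt5 on day 3, Krt5 on day 14 against day 3 in 2 fits, Krt17 on day 14 against day 3 at -1.03) and 14 changed sign, none of them passing. Sign changes were, on day 3, Krt15 after median centring (-0.0267) and Krt7 (0.35) and Krt18 (0.37) after centring on the epithelial genes. On day 14 against day 3 they were Krt7 (0.0520) and Krt15 (-0.0260) after quantile normalisation, and Krt18 (-0.12) and Krt15 (-0.26) after centring on the epithelial genes. Leaving out 1 array gave, on day 3, -0.34 to 0.12 for Krt18 and -0.0442 to 0.12 for Krt15, and on day 14 against mock -0.13 to 0.33 for Krt18, -0.58 to 0.0821 for Krt5 and -0.50 to 0.0245 for Krt14. The counts of all transcript clusters past the threshold were 1393 on day 3 (850 to 1295 without 1 array, the lowest without resected day 3 replicate 3), 34 on day 14 (20 to 58) and 1394 between the days (874 to 1386). Day 3 gave 2272 (2210 higher and 62 lower, against 1092 and 301) after centring on the epithelial genes, and day 14 gave 77 with trend and robust variances. Between the days, 90 were higher and 1754 lower after that centring, against 310 and 1084. The cause of these moves was not tested. Using other transcript clusters of a symbol was not possible, since each measured keratin had 1. A replicate block gave 1283, 26 and 1297 and ended no keratin's call. Values below the 95th percentile of the negative controls, on all 9 arrays for Krt5, Krt15, Krt17 and Krt19 and on all but 1 for Krt14, limit what can be shown.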

Other observations

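Of the 9 arrays, resected day 14 replicate 1 had the lowest value for Krt5 (5.96), Krt14 (6.80), Krt17 (3.83), Krt7 (13.89) and Krt8 (11.54), and not for the other 4 measured keratins. It was also the lowest for Myh11 (8.14) and for Epcam (14.72), and not for Acta2 (14.10, against 13.99 on mock replicate 3). This array was singled out after its values were seen.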
